A study of Mus musculus with 4 samples.

Results

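GATA factors and their erythroid and megakaryocyte partners were followed as 8 genes, Gata1, Gata2, Zfpm1, Klf1, Gfi1b, Tal1, Lmo2 and Nfe2, out of 32272 genes measured. The genes were chosen by name. Their loci were represented by the 163 open chromatin peaks, of 174339 in all, that lay within 50 kb of the start site or sites given for each gene in the deposited feature list. Gata1 had 17 such peaks, Gata2 17, Zfpm1 24, Klf1 20, Gfi1b 24, Tal1 14, Lmo2 27 and Nfe2 20, and all 163 were counted below. Of these, 17 overlapped the 1 kb around a start of the gene itself, 16 lay at the promoter of another gene, and 130 lay away from promoters.

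GATA1 and GATA2 are zinc finger transcription factors that bind the letters GATA in enhancers and promoters. GATA2 acts in stem cells, early progenitors, mast cells and basophils, and GATA1 takes over many of the same sites as red cells and megakaryocytes mature, with FOG-1, the product of Zfpm1, as its cofactor. On chromatin GATA factors work in a complex in which the basic helix-loop-helix protein TAL1 is bridged to GATA by the adaptor LMO2. KLF1 activates erythroid genes, GFI1B is a repressor needed by erythroid and megakaryocytic cells, and p45 NF-E2, encoded by Nfe2, acts in platelet formation and on globin loci.

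Stretches of raised open peaks that hold a GATA consensus, at promoters and away from them, are printed first. Of the 21 peaks raised in the classes followed below 16 held it, and those without it are not printed. Each is 100 bases of GRCm38 (mm10), read 5′ to 3′ on the strand of its gene and named by the distance in kb from the first start site to the centre of the peak that holds it, with upstream negative. Capitals mark the GATA consensus AGATAA or TGATAA on either strand, and a CTG (CAG on the other strand) placed 7 or 8 bases from it, which is the spacing of the composite element that the TAL1 and GATA complex is known to bind. The GATA consensus was found in 52.5% of the 174282 peaks whose sequence was read. A fixed rule named 12 peaks with a GATA consensus, and only the 8 of them called raised, as defined below, are printed. The other 3 of the 11 stretches, those of Gata2 at +9.4 kb, Gfi1b at +22.4 kb and Lmo2 at -0.9 kb, were added after their values were seen. Those of Gata2 and Gfi1b were added because they hold the CTG at this spacing.
Gata1 -0.2 kb (chrX:7968367-7968466, minus strand): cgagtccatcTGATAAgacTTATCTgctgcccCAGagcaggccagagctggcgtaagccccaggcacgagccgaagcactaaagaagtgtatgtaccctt
Gata1 -3.5 kb (chrX:7971455-7971554, minus strand): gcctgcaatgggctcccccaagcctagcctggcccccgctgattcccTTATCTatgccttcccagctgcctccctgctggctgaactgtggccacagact
Gata2 +9.4 kb (chr6:88203152-88203251, plus strand): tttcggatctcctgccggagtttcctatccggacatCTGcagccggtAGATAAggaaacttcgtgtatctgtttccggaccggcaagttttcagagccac
Zfpm1 +39.6 kb (chr8:122321802-122321901, plus strand): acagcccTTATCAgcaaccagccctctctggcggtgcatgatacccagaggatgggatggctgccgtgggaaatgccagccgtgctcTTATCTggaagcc
Klf1 -0.7 kb (chr8:84901273-84901372, plus strand): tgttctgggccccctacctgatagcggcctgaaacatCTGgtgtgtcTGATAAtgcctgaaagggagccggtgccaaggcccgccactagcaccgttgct
Gfi1b +23.8 kb (chr2:28598283-28598382, minus strand): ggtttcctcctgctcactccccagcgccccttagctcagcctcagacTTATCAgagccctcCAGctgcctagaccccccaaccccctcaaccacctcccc
Gfi1b +22.4 kb (chr2:28599399-28599498, minus strand): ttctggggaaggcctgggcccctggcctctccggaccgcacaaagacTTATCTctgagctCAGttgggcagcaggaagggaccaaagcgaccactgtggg
Gfi1b +19.6 kb (chr2:28602336-28602435, minus strand): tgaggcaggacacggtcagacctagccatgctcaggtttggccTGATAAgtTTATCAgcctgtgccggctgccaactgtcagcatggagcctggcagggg
Tal1 +39.7 kb (chr4:115095929-115096028, plus strand): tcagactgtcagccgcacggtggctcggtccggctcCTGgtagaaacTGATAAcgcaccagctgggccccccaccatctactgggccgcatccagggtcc
Lmo2 -26.9 kb (chr2:103931316-103931415, plus strand): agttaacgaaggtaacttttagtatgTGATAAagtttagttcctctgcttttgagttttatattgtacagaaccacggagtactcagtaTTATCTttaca
Lmo2 -0.9 kb (chr2:103957382-103957481, plus strand): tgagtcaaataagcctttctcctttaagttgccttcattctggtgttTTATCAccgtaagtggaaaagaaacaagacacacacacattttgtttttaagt
The 2 stretches of Gata1 and Klf1 nearest to a start show a GATA consensus beside a CTG, and the stretch of Gata2 at +9.4 kb, inside an intron, holds CTG and AGATAA separated by 8 bases. Each stretch was placed in its peak to hold the most CTG and GATA pairs, and then the most GATA consensus sites. The letters shown thus follow from the choice of peaks and stretches. A match of letters is a description and does not show that a factor was bound.

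The nuclei came from bone marrow cells of male C57BL/6 mice 8 weeks of age, sorted as lineage-negative and cKit-positive hematopoietic stem and progenitor cells (HSPCs). Mice of the Lig group carried a silk ligature on the teeth, a model of periodontitis, and mice of the Ctrl group were unligated, both taken at day 14. Each of the 4 label groups (RNA and ATAC of Ctrl, RNA and ATAC of Lig) held 1 sample, for which the marrow of 5 mice was pooled before the sort, so the animals of a group cannot be told apart. The deposited matrix pools both samples under barcode endings 1 and 2 that no label ties to a group, so they are called library 1 and library 2 here, and no ligature comparison was made.

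Filters of 200 or more genes and of 1000 to 50000 ATAC counts in peaks left 5905 nuclei in library 1 and 7714 in library 2, with 10294527 and 12537328 RNA molecules counted as unique molecular identifiers (UMIs). A total of 146 barcode sequences occurred in both libraries, 72 of them among the kept nuclei. A locus of ribosomal RNA took 43.0% of UMIs in library 1 and 53.2% in library 2. Nuclei were clustered and 12 of 19 clusters were named from marker genes, none of which is one of the 8 genes, while 7268 nuclei (53.4%) stayed unnamed. The classes that matter here are erythroid progenitor-like (EryP-like, 314 and 315 nuclei in libraries 1 and 2, led by Car1, Ank1 and Aqp1), megakaryocyte progenitor-like (MkP-like, 132 and 188, led by Vwf, Itga2b and Pf4), basophil progenitor-like (BaP-like, 122 and 153, led by Ms4a2, Prss34 and Mcpt8) and stem cell-like (HSC-like, 276 and 382, led by Mecom and Hlf). In the EryP-like nuclei 5 of 10 erythroid markers fixed for naming were raised, among them Hba-a1. Pro-B-like nuclei (798 and 387) served as the class in which most of the 8 genes are not known to act. A mature B-like cluster was present in spite of the lineage-negative sort, and cells of high doublet score were kept in the values below because the doublet caller did not work on these data.

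Levels are given as CPM, the count scaled by the sum of all UMIs, or of all ATAC counts, of a class in 1 library, each with a 95% Poisson interval that covers counting error only. For a count of 0 the limit given is the level that 3 counts would have. The ratio of a class is its CPM over that of all other kept nuclei of the same library. A gene or peak is called raised where this ratio was at least 2 in both libraries, with at least 20 UMIs of the gene in each library, or at least 20 counts of the peak in the class in each library. The 8 genes and the 163 peaks took no part in the clustering, but other genes and peaks of the same nuclei did. With 1 sample per group no test was made and no p-value is given. Levels were compared within a gene only, since the UMI counts are not scaled by gene length.

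Of the 8 genes, 7 had enough UMIs for a call, and Klf1 missed it with 19 UMIs in library 1. In EryP-like nuclei 5 were raised (Gata1, Gata2, Zfpm1, Gfi1b and Tal1), where 4.32% of the 10614 genes with enough UMIs were. Outside EryP-like nuclei Gata1 had 18 and 16 UMIs in libraries 1 and 2 and Gfi1b 14 and 18, so both met the minimum of 20 only through the class in which they were high, and the 5 are given as a description. MkP-like nuclei had 6 raised, the same 5 and Nfe2, against 3.97% of genes. The MkP-like calls of Gata1 and Gfi1b rested on only 9 and 7 UMIs over both libraries. In BaP-like nuclei Gata2 alone was raised, against 2.64%, and in HSC-like nuclei Gata2, Tal1 and Lmo2 were, against 4.76%. The BaP-like call was lost at a gene minimum of 500, where the Gata2 ratio was 1.54 in library 2, and no BaP-like class was named in clusters from the RNA alone. None of the 7 was raised in the other 8 named classes. The same 5 and 6 genes were raised in EryP-like and MkP-like nuclei when all features entered the clustering, when the libraries were not corrected to each other, at a clustering resolution of 0.4, in clusters from the RNA alone, with another random seed, and after nuclei in the top 8% of doublet scores had been taken out. At a gene minimum of 500, where Gata1 and Gfi1b had too few UMIs for a call, 3 were raised in EryP-like (Gata2, Zfpm1 and Tal1) and 4 in MkP-like nuclei (these and Nfe2). With the limits on ATAC counts set on halved counts Klf1 joined the 5 in EryP-like nuclei and Lmo2 took the place of Nfe2 in MkP-like nuclei, and at a limit of 4-fold Zfpm1 and Gfi1b were left in MkP-like and all but Tal1 in EryP-like nuclei. The HSC-like calls held less well, since none of the 3 was made at a resolution of 0.4 or in clusters from the RNA alone. The HSC-like call of Gata2 was also lost without correction between the libraries, and those of Gata2 and Tal1 at a gene minimum of 500.

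**Figure D1:**
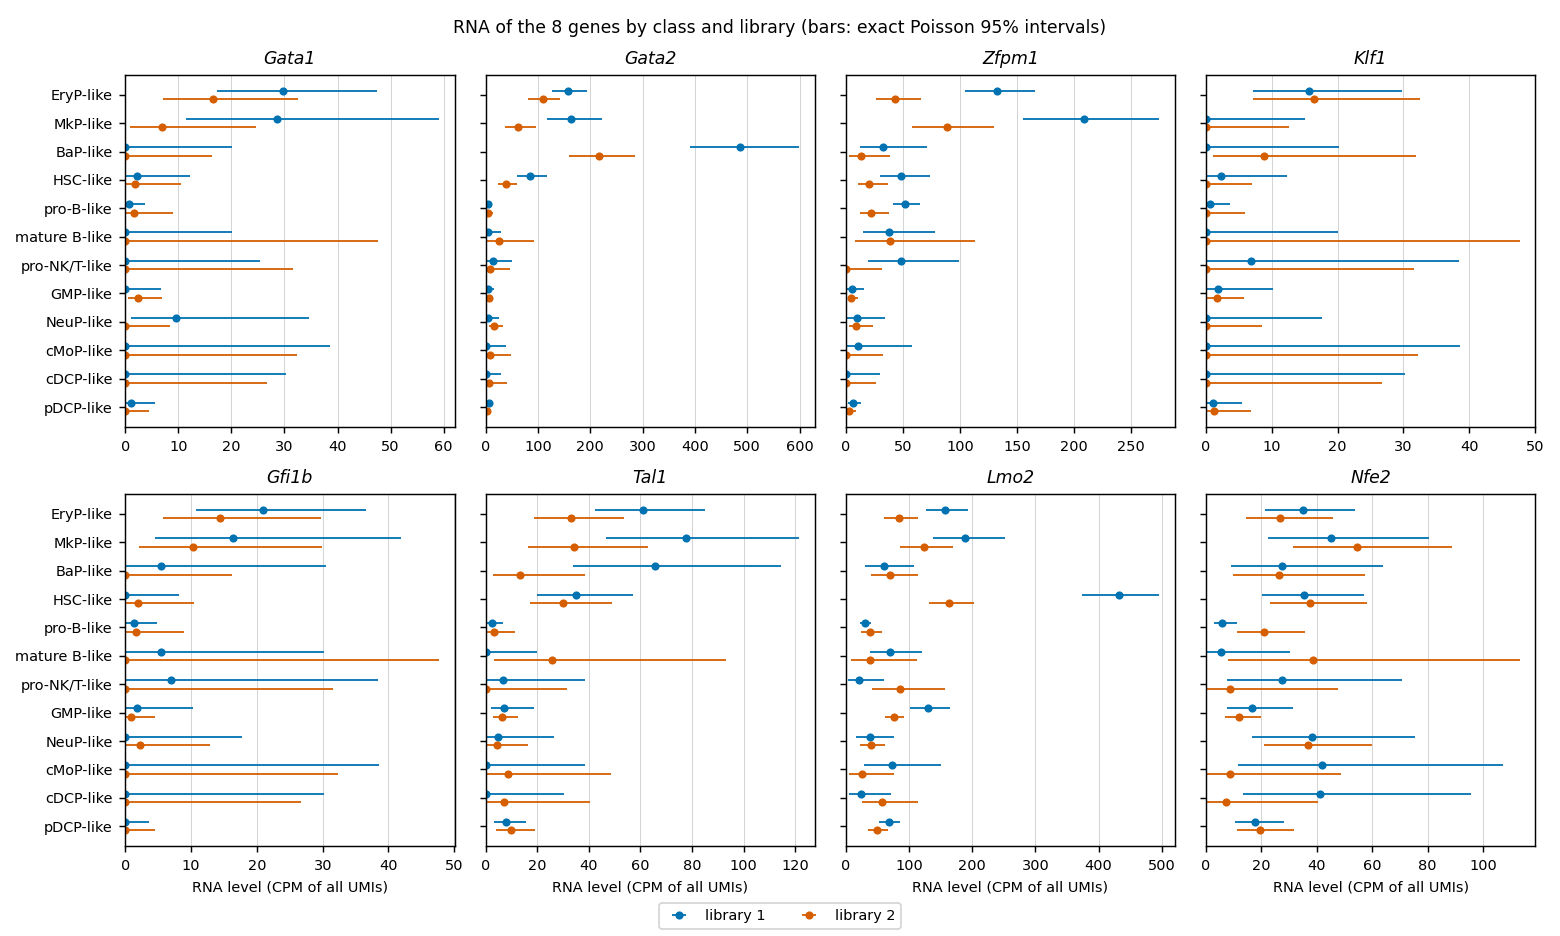
RNA level of each of the 8 genes (CPM, 1 panel per gene with its own axis from 0) in the 12 named classes, with 1 point per library and bars of the 95% Poisson interval. Gata2 is highest in BaP-like nuclei at 487 and 216 CPM, Lmo2 in HSC-like nuclei at 432 and 164 CPM, and Gata1, Klf1 and Gfi1b in EryP-like nuclei.

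Gata2, the GATA factor of early progenitors and mast cells, was highest in BaP-like nuclei, with 89 UMIs in library 1 (487 CPM, interval 391 to 599) and 49 in library 2 (216 CPM, 160 to 286). EryP-like nuclei, with 157 CPM (126 to 193) and 109 CPM (81.8 to 143), and MkP-like nuclei, with 164 CPM (117 to 223) and 61.5 CPM (36.4 to 97.2), came next, and neither was above the other in both libraries. HSC-like nuclei held 85.9 and 39.6 CPM, and pro-B-like nuclei 4.62 and 4.82 CPM. In both libraries the BaP-like interval lay above those of the other 3 classes, at 19.7 and 16.3 times the remaining nuclei, whereas EryP-like and MkP-like intervals overlapped in both. As said above, the BaP-like call of Gata2 was lost at a gene minimum of 500. Of 551 Gata2 UMIs in all, 72.4% were in these 4 classes.

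Gata1, the GATA factor of maturing red cells and megakaryocytes, was sparse, with 59 UMIs in all 13619 nuclei. EryP-like nuclei held 17 of them in library 1 (29.7 CPM, 17.3 to 47.5, 16.0 times the other nuclei) and 8 in library 2 (16.5 CPM, 7.11 to 32.5, 12.4 times). MkP-like nuclei held 7 (28.7 CPM) and 2 (6.83 CPM, where 3 counts are 10.2 CPM), and these intervals overlapped those of EryP-like nuclei. BaP-like nuclei, which held the highest Gata2 level, had 0 Gata1 UMIs in both libraries, which allows up to 16.4 and 13.2 CPM at 3 counts. Their 95% intervals, from 0 to 20.2 and 16.3 CPM, overlapped those of EryP-like nuclei in each library taken alone. Over both libraries together the BaP-like interval, 0 to 9.01 CPM, lay below that of EryP-like nuclei (15.3 to 34.9 CPM). It overlapped that of MkP-like nuclei (7.67 to 31.8 CPM), so a level lower than theirs was not detectable at this depth. HSC-like nuclei had 1 UMI in each library. Both GATA genes were thus called raised in EryP-like and MkP-like nuclei, for Gata1 in MkP-like nuclei from only 2 UMIs in library 2. The class with most Gata2 had no counted Gata1.

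Chromatin at Gata1 was open in the same classes. The peak at -3.5 kb (chrX:7971016-7971901, in an intron of an upstream transcript of Gata1) held 14.0 CPM (9.93 to 19.2) and 15.3 CPM (10.5 to 21.6) in EryP-like nuclei of libraries 1 and 2, and 12.9 and 9.70 CPM in MkP-like nuclei. BaP-like nuclei held 5.85 and 7.36 CPM, HSC-like 1.65 and 1.94 CPM, and pro-B-like 0.235 and 0.320 CPM. The EryP-like ratios of 12.8 and 18.3 were the highest of any raised peak in the 8 loci in that class. The promoter peak at -0.2 kb held 5.63 and 6.70 CPM in EryP-like nuclei (4.81 and 9.27 times), and 6.86 and 4.35 CPM in MkP-like nuclei, too few counts for a call there. BaP-like nuclei, with no Gata1 UMI, stood at 3.65 and 6.19 times the other nuclei at -3.5 kb, with too few counts for a call and with intervals (2.35 to 12.1 and 3.37 to 14.0 CPM) that overlapped those of both EryP-like and MkP-like nuclei. At the promoter they held 4.18 and 2.86 CPM. Another raised peak, at -25.2 kb, held 5.82 and 7.18 CPM in EryP-like nuclei.

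At Gata2 the picture was less sharp, because its peaks were open in more classes. The peak at -4.1 kb (chr6:88189334-88190232) held 44.3 and 41.3 CPM in BaP-like nuclei and 40 and 37.1 CPM in EryP-like nuclei, 2.25 to 2.48 times the other nuclei, and it holds no GATA consensus. The intronic peak at +9.4 kb (chr6:88202837-88203742), the stretch with the composite element printed above, was raised in HSC-like nuclei with 33.0 and 30.7 CPM (2.96 and 2.82 times) and in MkP-like nuclei with 29.1 and 29.8 CPM. Its EryP-like values were 24.7 and 18.7 CPM, its BaP-like values 21.3 and 9.81 CPM, and its pro-B-like values 4.58 and 5.76 CPM. HSC-like values were thus above BaP-like values at this peak, with overlapping intervals in library 1, while the RNA was higher in BaP-like nuclei. A peak at -27.7 kb reached 28.4 and 17.2 CPM in BaP-like nuclei and at most 6.22 CPM in EryP-like or MkP-like nuclei, and missed the call with a ratio of 1.36 in library 2. The 2 promoter peaks with most counts, at +0.1 and +4.8 kb, were not raised in any of the 4 classes.

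Zfpm1, which encodes the GATA cofactor FOG-1, was highest in MkP-like nuclei at 209 CPM (156 to 275) and 88.8 CPM (58.0 to 130), with 8.08 and 10.9 times the other nuclei. EryP-like nuclei held 133 CPM (104 to 166) and 43.3 CPM (26.8 to 66.1), and their intervals overlapped with those of MkP-like nuclei in each library taken alone. Over both libraries together the MkP-like interval (113 to 179 CPM) lay just above that of EryP-like nuclei (74.3 to 112 CPM). Among the named classes, over both libraries together, pro-B-like nuclei came next. They held 52.1 and 22.5 CPM, above HSC-like values of 48.4 and 20.7 CPM by less than the intervals. An unnamed cluster with 9 raised pro-B markers held 61.9 CPM (38.8 to 93.7) over both libraries, against 43.5 CPM (35.1 to 53.3) in pro-B-like nuclei. GMP-like nuclei (granulocyte and monocyte progenitors) had 5.51 and 4.79 CPM. The gene was thus not confined to the erythroid and megakaryocytic classes.

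The promoter of Zfpm1, at -0.4 kb, was open everywhere, with 130 and 128 CPM in EryP-like and 129 and 106 CPM in pro-B-like nuclei, while peaks in and before its body were restricted. The intronic peak at +39.6 kb (chr8:122321301-122322171) held 29.3 and 36.4 CPM in EryP-like nuclei (9.40 and 14.1 times), 22.7 and 23.1 CPM in MkP-like, 10.0 and 10.6 CPM in BaP-like and 1.35 and 0.8 CPM in pro-B-like nuclei. Another, at +27.3 kb, was raised in the same 3 classes, with 10.7 and 19.7 CPM in MkP-like and 14.6 and 8.59 CPM in BaP-like nuclei, so the order of these classes differed between the libraries. The peak at -6.9 kb was raised in all 4 classes, between 8.78 and 16.1 CPM. One at +14.6 kb was raised in BaP-like nuclei only of the 4, with 23.4 and 15.9 CPM (5.65 and 3.45 times), a class in which Zfpm1 RNA was 32.8 and 13.2 CPM and not raised. In pro-B-like nuclei a different intronic peak, at +3.9 kb, held 54.1 and 53.3 CPM, 7.14 and 10.3 times the other nuclei.

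Tal1, the DNA-binding helix-loop-helix factor of the complex, held 77.8 CPM (46.9 to 122) and 34.2 CPM (16.4 to 62.8) in MkP-like nuclei and 61.1 and 33.0 CPM in EryP-like nuclei, with overlapping intervals. HSC-like nuclei held 35.2 and 30.1 CPM (2.57 and 3.35 times). BaP-like nuclei had 12 UMIs (65.6 CPM, 4.78 times) in library 1 and 3 UMIs (13.2 CPM, 1.35 times) in library 2, so the call there rests on the library. Pro-B-like nuclei held 2.64 and 3.21 CPM.

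At Tal1 the peak at +39.7 kb (chr4:115095672-115096519), which holds 2 GATA consensus sites and the composite spacing, was raised in MkP-like nuclei with 39.0 and 34.5 CPM (2.88 and 3.01 times), HSC-like nuclei with 31.8 and 28.1 CPM and EryP-like nuclei with 28.2 and 25.9 CPM. Pro-B-like values were 11.8 and 9.12 CPM. A peak at -3.7 kb held 18.9 and 17.4 CPM in MkP-like nuclei and missed the call with ratios of 2.13 and 1.99, and one at +47.2 kb was raised in HSC-like nuclei (4.54 and 6.79 CPM). The peak at -18.0 kb, in a coding exon of Stil with 5 GATA consensus sites, was raised in EryP-like nuclei (6.72 and 10.8 CPM). The promoter peak at +0.5 kb held 56 and 52.2 CPM in EryP-like against 15.4 and 14.1 CPM in pro-B-like nuclei, and its ratios of 2.21 and 1.84 fell on both sides of the limit.

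Lmo2, the adaptor of the complex, had its maximum in the stem cell-like class. HSC-like nuclei held 196 UMIs in library 1 (432 CPM, 373 to 496) and 87 in library 2 (164 CPM, 131 to 202), 5.03 and 2.61 times the other nuclei. MkP-like nuclei held 188 and 123 CPM, EryP-like 157 and 84.4 CPM, and GMP-like 130 and 75.8 CPM. The HSC-like interval was apart from the MkP-like interval in library 1, and the 2 overlapped in library 2. Pro-B-like nuclei held 30.3 and 38.6 CPM. An unnamed cluster led by Slc24a3 held 130 CPM (114 to 149) over both libraries, against 124 CPM (103 to 147) in EryP-like nuclei. Of 1882 Lmo2 UMIs in all, 27.8% were in EryP-like, MkP-like, BaP-like and HSC-like nuclei.

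In the Lmo2 locus 2 peaks ordered EryP-like and HSC-like nuclei in opposite ways. The peak at -0.9 kb (chr2:103956686-103957500), close to the upstream start, held 11.8 and 9.57 CPM in EryP-like nuclei (8.17 and 8.52 times), and 0.825 and 0.776 CPM in HSC-like nuclei, the class with most Lmo2 RNA. By contrast the peak at -26.9 kb (chr2:103930684-103931415) held 10.3 and 11.4 CPM in HSC-like nuclei (3.29 and 2.98 times) and 3.82 and 4.55 CPM in EryP-like nuclei. At the downstream start the peak at +12.3 kb held 14.0 and 8.14 CPM in EryP-like, 15.7 and 18.2 CPM in HSC-like and 21.6 and 17.8 CPM in pro-B-like nuclei. An intronic peak at +7.6 kb was raised in EryP-like nuclei (8.18 and 6.94 CPM). Over the 23 peaks away from promoters the sum was lowest of the 5 classes in EryP-like nuclei, at 85.1 and 89.8 CPM, and highest in pro-B-like nuclei, at 146 and 140 CPM, whose peaks at -40.4, -22.0 and -16.7 kb were each over 4 times the other nuclei.

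Klf1, the erythroid activator, had 47 UMIs in all. EryP-like nuclei held 9 in library 1 (15.7 CPM, 7.18 to 29.8, 15.3 times the other nuclei) and 8 in library 2 (16.5 CPM, 7.11 to 32.5, 9.93 times). MkP-like nuclei had 0 in both libraries, which allows up to 12.3 and 10.2 CPM at 3 counts, values inside the EryP-like intervals. Over both libraries together the MkP-like interval, 0 to 6.87 CPM, lay below that of EryP-like nuclei (9.35 to 25.7 CPM, from 17 UMIs). BaP-like nuclei had 0 and 2 UMIs, and HSC-like nuclei 1 and 0. The peak at -0.7 kb (chr8:84900953-84901556), with TGATAA 7 bases from a CTG, rested on more counts. It held 14.5 CPM (10.4 to 19.8) and 14.4 CPM (9.69 to 20.5) in EryP-like nuclei, 9.81 and 13.2 times the other nuclei, against 4.28 and 3.35 CPM in MkP-like, 4.60 and 2.86 CPM in BaP-like (2.26 and 1.92 times, from 11 and 7 counts), 0.825 and 0 CPM in HSC-like and 1.11 and 0.960 CPM in pro-B-like nuclei. The peak at +1.3 kb, over a coding exon of Klf1, was open in all 5 classes at 32.6 to 53.1 CPM.

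Gfi1b, the repressor, had 51 UMIs, with 12 (20.9 CPM, 14.5 times) and 7 (14.4 CPM, 9.65 times) in EryP-like nuclei. MkP-like nuclei held 4 and 3 (16.4 and 10.2 CPM), with ratios of 7.49 (2.04 to 19.2) and 5.70 (1.18 to 16.7). At +23.8 kb (chr2:28597793-28598670) EryP-like nuclei held 38.7 and 34.7 CPM (5.37 and 6.39 times), MkP-like 29.1 and 28.4 CPM, HSC-like 24.5 and 14.7 CPM and BaP-like 28.8 and 11.4 CPM, against 3.70 and 3.20 CPM in pro-B-like nuclei. This peak was raised in the first 3 of these classes, although 1 Gfi1b UMI in all was counted in HSC-like nuclei, and missed the call in BaP-like nuclei with ratios of 3.49 and 1.82.

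Peaks within a few kb of it divided the classes. The peak at +22.4 kb (chr2:28599097-28599967) was highest in MkP-like nuclei at 42.8 and 38.8 CPM (4.50 and 5.82 times), with 21.0 and 17.7 CPM in HSC-like, 16.7 and 13 CPM in pro-B-like and 11.8 and 12.2 CPM in EryP-like nuclei. At +19.6 kb (chr2:28601928-28602823) EryP-like nuclei stood above MkP-like nuclei instead, with 18.5 and 17.2 CPM in EryP-like (8.10 and 8.94 times), 9.43 and 5.69 CPM in MkP-like and 1.86 and 2.33 CPM in HSC-like nuclei, although the EryP-like and MkP-like intervals overlapped in library 1. EryP-like nuclei also had a raised peak at +14.6 kb (6.36 and 6.70 CPM). All of these lie past the end of Gfi1b in intergenic sequence, and the promoter peak at +0.1 kb was not raised in any of the 4 classes.

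Nfe2, the p45 NF-E2 gene, showed the weakest class pattern. MkP-like nuclei held 45.1 CPM (22.5 to 80.6) and 54.7 CPM (31.2 to 88.8), only 2.19 and 2.59 times the other nuclei, with lower bounds of the ratio at 1.09 and 1.48, and the call was not made when the limits on ATAC counts were set on halved counts. HSC-like nuclei held 35.2 and 37.7 CPM, NeuP-like nuclei (neutrophil progenitors) 38.4 and 36.8 CPM and EryP-like nuclei 34.9 and 26.8 CPM, all with overlapping intervals. No peak of its locus was raised in EryP-like, MkP-like or BaP-like nuclei. The peak at -5.0 kb held 21.9 and 14.4 CPM in MkP-like nuclei and missed the call with ratios of 2.20 and 1.24, and the peak at -40.6 kb, in an intron of Copz1, was raised in HSC-like nuclei (5.16 and 8.15 CPM). The promoter peak at +0.1 kb stood at 0.598 and 1.15 times the other nuclei in MkP-like nuclei.

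**Figure D2:**
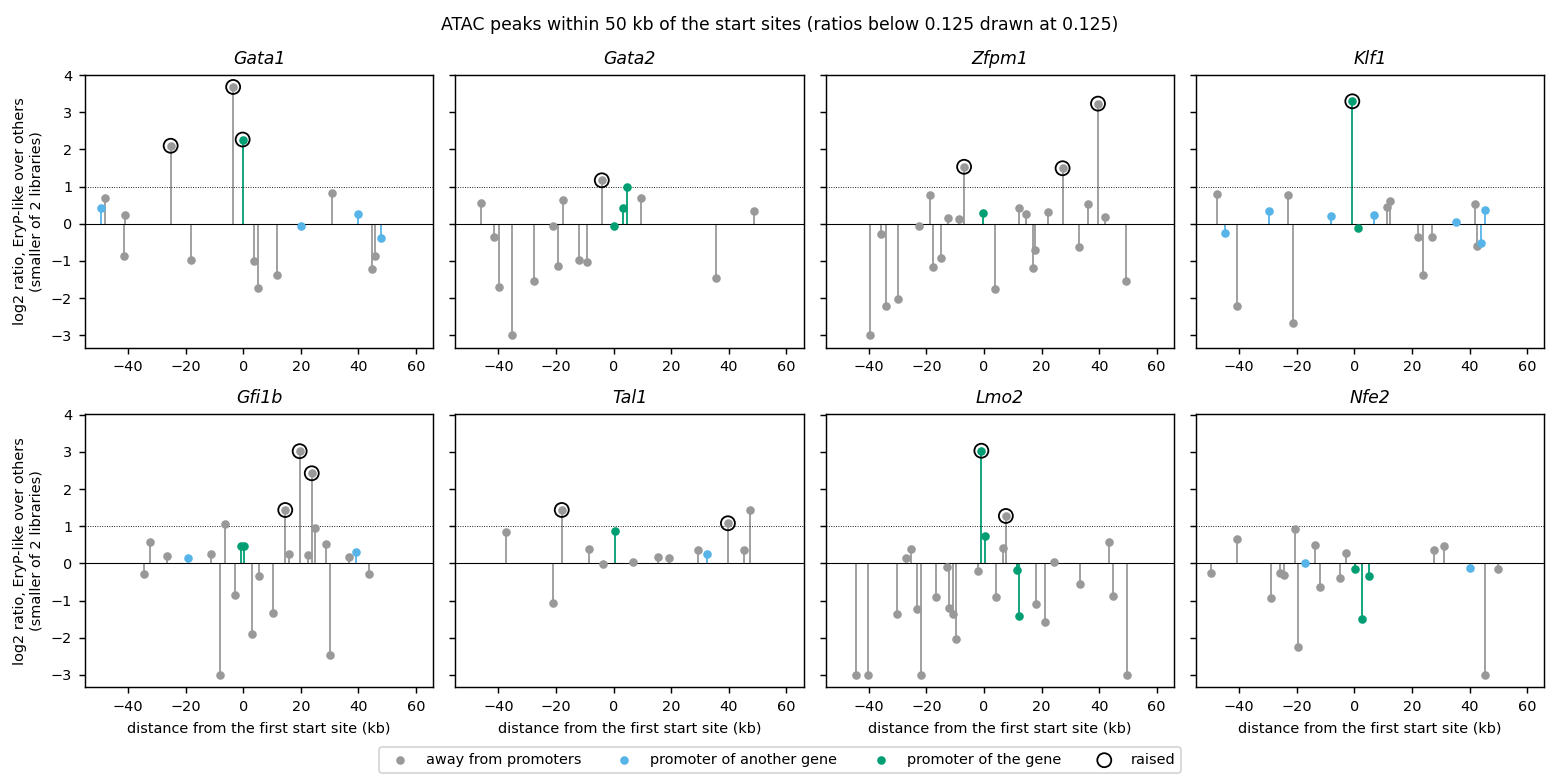
Ratio of EryP-like to all other nuclei (log2 axis, smaller of the ratios of both libraries) for each peak, placed by its distance in kb from the start of the gene. Circled points are the 15 raised peaks, 3 of them at promoters; the dotted line is the 2-fold limit, and points above it without a circle had fewer than 20 counts in a library.

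Across the loci, 15 of the 163 peaks (9.20%) were raised in EryP-like nuclei, where 3.11% of all peaks were. The count was 8 (4.91%) in MkP-like nuclei against 1.55%, 5 (3.07%) in BaP-like nuclei against 1.01%, and 8 (4.91%) in HSC-like nuclei against 2.08%. Pro-B-like nuclei had 6 (3.68%), below the 5.09% of all peaks raised in that class. A peak needed 20 counts in the class itself, so it could pass through the class in which it was high, and the counts are descriptions. Among peaks with that many counts the shares were closer, 15 of 84 (17.9%) against 12.8% of all such peaks in EryP-like, 8 of 54 (14.8%) against 10.6% in MkP-like, 5 of 48 (10.4%) against 7.17% in BaP-like, 8 of 77 (10.4%) against 7.38% in HSC-like and 6 of 80 (7.5%) against 14.9% in pro-B-like nuclei. The counts of raised peaks in all 4 classes moved with the settings. Library 1 alone gave 26 in EryP-like, 13 in MkP-like, 10 in BaP-like and 13 in HSC-like nuclei, and a gene minimum of 500 gave 9, 7, 0 and 3. The HSC-like count was 4 at resolution 0.4 and 2 in clusters from the RNA alone. By locus, EryP-like nuclei had 3 raised peaks each at Gata1, Zfpm1 and Gfi1b, 2 each at Tal1 and Lmo2, 1 each at Gata2 and Klf1 and 0 at Nfe2. In BaP-like nuclei 4 of the 5 were at Zfpm1. Of the 21 peaks raised in any of the 4 classes, 18 lay away from promoters, and the 3 at promoters (Gata1 at -0.2 kb, Klf1 at -0.7 kb and Lmo2 at -0.9 kb) were all raised in EryP-like nuclei. These 3 were among the 17 peaks at promoters of the genes themselves, and 1.43% of all 19859 promoter peaks were raised in EryP-like nuclei. Of the 130 peaks away from promoters, 12 were raised in EryP-like, 8 in MkP-like, 5 in BaP-like and 8 in HSC-like nuclei. Away from promoters the share over all peaks was 3.32% in EryP-like, 1.61% in MkP-like, 1.10% in BaP-like and 2.17% in HSC-like nuclei. The other peaks of highest ratio, at Gata1 +19.9 kb, Klf1 +11.3 and +45.4 kb, Gfi1b +28.9 kb, Tal1 +19.3 kb, Lmo2 -12.9 and +11.6 kb and Nfe2 -17.3 and -49.9 kb, stood at 0.965 to 1.85 times the other nuclei in the class with the highest RNA of the gene.

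EryP-like and MkP-like nuclei shared 6 raised peaks, 6 of 15 in EryP-like and 6 of 8 in MkP-like nuclei, where 25.7% and 51.5% of all peaks raised in these classes were shared. EryP-like and BaP-like nuclei shared 4 (4 of 15 and 4 of 5, all peaks 11.8% and 36.6%), MkP-like and HSC-like nuclei 5 (5 of 8 in each, all peaks 33.0% and 24.6%), and EryP-like and HSC-like nuclei 3 (3 of 15 and 3 of 8, all peaks 14.1% and 21.1%). With so few peaks these shares are descriptions, and nothing particular to the 8 loci is read from them. The 1 peak raised in all 4 was Zfpm1 at -6.9 kb. At the limit itself, Tal1 at +39.7 kb was just inside in EryP-like nuclei (2.11 and 2.25 times) and Gata2 at +4.8 kb just outside (1.98 and 2.20 times). In MkP-like nuclei these were Gata2 at +9.4 kb (2.49 and 2.65) and Tal1 at -3.7 kb (2.13 and 1.99), in BaP-like nuclei Zfpm1 at +39.6 kb (2.38 and 3.0) and Gfi1b at +23.8 kb (3.49 and 1.82), and in HSC-like nuclei Gfi1b at +22.4 kb (2.17 and 2.53) and Nfe2 at +40.1 kb (2.17 and 1.88).

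**Figure D3:**
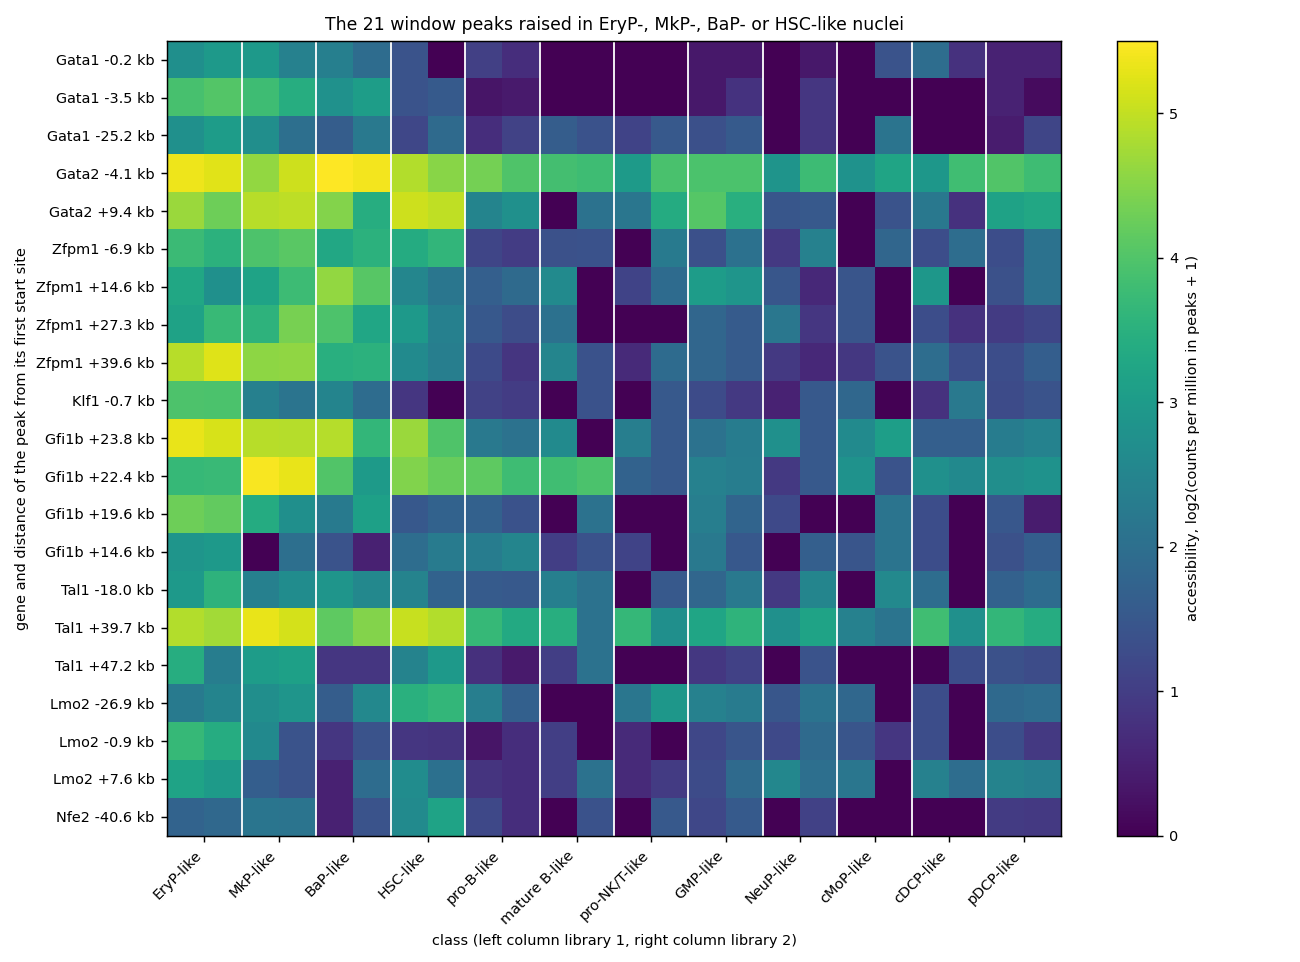
CPM of the 21 peaks raised in at least 1 of the 4 classes, in the 12 named classes (left column library 1, right column library 2), on a colour scale of log2(CPM + 1). Zfpm1 at +39.6 kb and Gfi1b at +23.8 kb are high in EryP-like and MkP-like nuclei, Gfi1b at +22.4 kb is highest in MkP-like nuclei, and Lmo2 at -26.9 kb is highest in HSC-like nuclei.

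The GATA consensus (AGATAA or TGATAA, both strands) occurred in 64 of the 163 peaks (39.3%), below the 52.5% of all peaks; the loci held more GC (51.9% on average, 47.9% over all peaks) at a like median length (871 and 869 bases). Among the 21 raised peaks 16 (76.2%) had it, and among the 142 others 48 (33.8%). This was not particular to these loci, since 12 of 15 peaks raised in EryP-like nuclei (80%) held it against 84.4% of all peaks raised in that class. The shares were 8 of 8 and 74.9% in MkP-like, 4 of 5 (80%) and 85.4% in BaP-like and 6 of 8 (75%) and 62.5% in HSC-like nuclei. Of the 2 raised peaks most open in BaP-like nuclei at Gata2 and Zfpm1, that of Gata2 at -4.1 kb had none and that of Zfpm1 at +14.6 kb had 2.

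**Figure D4:**
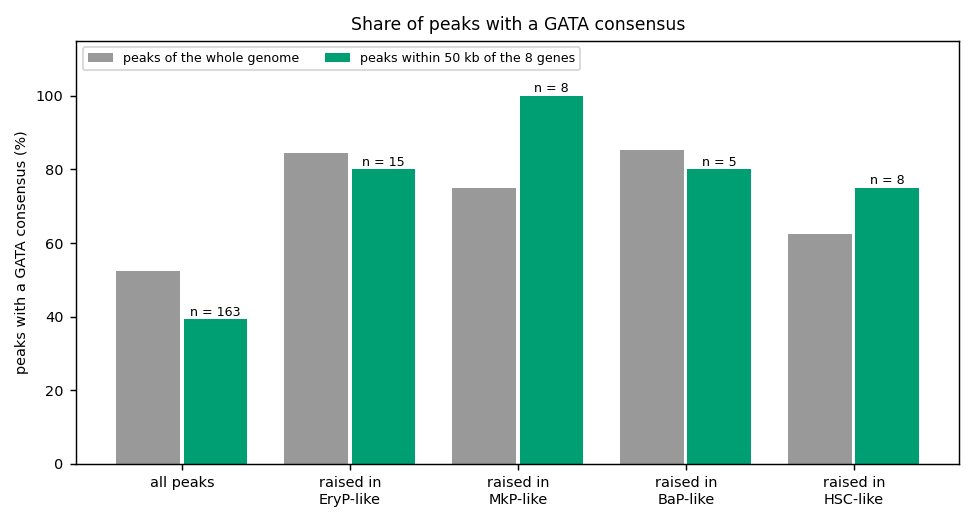
Percent of peaks that hold the GATA consensus, for all peaks, for the 163 peaks of the 8 loci, and for peaks raised in each of the 4 classes, with the loci beside all peaks. The bars of raised peaks are at 75% or above in the loci and at 62.5% to 85.4% over all peaks, above the 39.3% and 52.5% of all peaks in each set.

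A CTG followed after 7 or 8 bases by GATAA, with any base before it, was in 9 of the 163 peaks (5.52%) and in 5.52% of all peaks. With AGATAA or TGATAA after the same spacing, a form added after the data were seen, it was in 12 (7.36%) against 3.89%. Among raised peaks this form was in 4 of 15 in EryP-like nuclei (21.2% of all peaks raised in the class), 4 of 8 in MkP-like (17.7%), 0 of 5 in BaP-like (13.2%) and 4 of 8 in HSC-like nuclei (10.9%). The form with any base was in 2 of 15 (14.5%), 1 of 8 (12.4%), 0 of 5 (12.9%) and 1 of 8 (9.63%) of them. The KLF consensus CCNCNCCC was in 111 peaks (68.1%, all peaks 58.9%). Among raised peaks it was in 14 of 15 in EryP-like (61.1% of all raised peaks) and 8 of 8 in MkP-like nuclei (63.0%). It was in 5 of 5 in BaP-like (57.7%) and 6 of 8 in HSC-like nuclei (60.3%). The NF-E2 consensus GCTGAGTCA was in 4 of the 163 peaks (2.45%, all peaks 2.16%), and it contains the AP-1 core TGAGTCA, found in 22 (13.5%, all peaks 16.9%). The E-box (CAGCTG or CAGATG) was in 119 (73.0%, all peaks 69.5%), the PU.1 consensus GAGGAAGT in 16 (9.82%, 13.7%) and the RUNX consensus TGTGGTT in 35 (21.5%, 23.4%). RefSeq promoters of 300 bases were matched to the genes by symbol. Of the 8 matched sequences 3 held the GATA consensus, those of Gfi1b, Klf1 and Tal1, as did 18.6% of 32851 promoters. The 8 sequences did not cover all 8 genes, since at least 1 gene had more than 1, so nothing is read for genes not named.

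Detection per nucleus was low, as UMI depth was. Outside the ribosomal RNA locus the median was 979.5 and 633 UMIs in EryP-like nuclei of libraries 1 and 2 and 1073.5 and 699 in pro-B-like nuclei. At least 1 Gata2 UMI was seen in 67 of 122 BaP-like nuclei of library 1 (54.9%, 45.7% to 63.9% by the exact binomial interval) and 43 of 153 of library 2 (28.1%, 21.1% to 35.9%), with medians of 753.5 and 588 UMIs, against 0.877% and 0.775% of pro-B-like nuclei. For Gata1 it was 5.41% and 2.54% of EryP-like against 1 of 798 and 1 of 387 pro-B-like nuclei. Thinned to 500 UMIs the Gata1 shares in EryP-like nuclei were 1.36% and 1.78%, with 19 and 90 shallower nuclei left out, against 0.135% and 0.319% of pro-B-like nuclei, so no order of the libraries is read from them. Zfpm1 was seen in 28.0% and 13.3% of MkP-like nuclei (medians 1012.5 and 694 UMIs), and in 9.52% and 3.36% of pro-B-like nuclei. When each nucleus was thinned to 500 UMIs the Gata2 shares in BaP-like nuclei became 34.3% and 18.8%, with 20 and 52 shallower nuclei left out, and in pro-B-like nuclei 0.405% and 0.319%, with 58 and 74 left out.

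Counted together, at least 1 of the 8 genes had a UMI in 49.6% of EryP-like, 54.7% of MkP-like, 53.1% of BaP-like, 43.6% of HSC-like and 16.3% of pro-B-like nuclei. At least 2 of the genes were seen in the same nucleus in 97 of 629 EryP-like (15.4%), 52 of 320 MkP-like (16.2%), 24 of 275 BaP-like (8.73%), 54 of 658 HSC-like (8.21%) and 5 of 1185 pro-B-like nuclei (0.422%). The most seen in 1 nucleus was 5, in a MkP-like nucleus. These shares are of nuclei with a UMI and rise with depth, so they are no measure of how many nuclei expressed a gene.

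Other genes of the network were counted from lists. Of 20 partner factors, 7 were raised in EryP-like nuclei, with a median log2 ratio of 0.54, beside 4.32% raised and a median of 0.16 over all genes. They were Ldb1, which joins LMO2 complexes at distant sites (3.68 and 3.48 times), its stabiliser Ssbp3 (2.90 and 2.99), the corepressor Cbfa2t3 (2.13 and 2.21), the globin repressor Bcl11a (2.58 and 2.82), Sox6 (2.67 and 3.57), Myb (2.37 and 2.12) and Nfia (9.06 and 9.36). The median was 0.23 in MkP-like (0.08 over all genes), 0.11 in BaP-like (-0.17) and 0.32 in HSC-like nuclei (0.15). In MkP-like nuclei Fli1, an ETS factor of megakaryocytes, and Sox6 were raised (2 of 20, all genes 3.97%) and Tcf3 stood at 0.48 and 0.49 times the other nuclei. Runx1 was raised in BaP-like nuclei, 1 of 20 and near the 2.64% of all genes, and none was in HSC-like nuclei (4.76%). Sox6 missed the call in BaP-like nuclei at 1.99 and 8.23 times the other nuclei.

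Of 15 erythroid targets 10 had enough UMIs and 5 were raised in EryP-like nuclei (all genes 4.32%). Of these 10, 6 met the minimum on the UMIs outside EryP-like nuclei, and 1 of the 6 was raised, so most of the calls came from genes that passed through the class in which they were high and are given as a description. Among them were Sptb (22.7 and 18.5 CPM, from 13 and 9 UMIs), the Rh-associated glycoprotein Rhag (54.1 and 39.1 CPM), the carbonic anhydrase Car2 (358 and 210 CPM) and Tspo2. Car2 was raised in MkP-like and HSC-like nuclei too, and Urod, a heme synthesis enzyme, in HSC-like nuclei. Of 4 megakaryocyte targets with enough UMIs, out of 12, 3 were raised in MkP-like nuclei (among them Rab27b at 135 and 99.1 CPM and the integrin chain Itgb3 at 45.1 and 37.6 CPM) and none in EryP-like nuclei, beside 3.97% and 4.32% of all genes. Only 2 of the 4 met the minimum outside MkP-like nuclei, with 1 of them raised, so this count is a description too. In BaP-like nuclei 4 of 7 mast and basophil genes were raised, Hdc, the IL-33 receptor Il1rl1, Alox5 and Il3ra, with a median log2 ratio of 1.3, beside 2.64% raised and a median of -0.17 over all genes. Il1rl1 and Alox5 were among the 10 genes that led the BaP-like cluster, and Rab27b among those of the MkP-like cluster. These genes were not left out of the clustering, so these counts are descriptions of the clusters. In EryP-like nuclei Il1rl1 (20.1 and 13.7 times) and Kit (2.47 and 2.79 times) were raised, Csf2rb and Il3ra stood at or below 0.5 times the other nuclei in both libraries, and the median of the 7 was -0.50.

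Factors of other lineages showed the reverse. None of 7 was raised in any of the 4 classes, and the number at or below 0.5 times the other nuclei in both libraries was 4 in EryP-like, 5 in MkP-like, 2 in BaP-like and 4 in HSC-like nuclei, where 7.18%, 8.47%, 12.6% and 4.04% of all genes were. Irf8 and Ebf1 were among them each time, and the median log2 ratios of the list lay between -2.40 and -1.53. Ebf1 and Pax5 were markers that named the pro-B-like class, and Cebpe one that named the NeuP-like class. Both classes are among the other nuclei, so low ratios of these genes elsewhere were built in. The list was counted in the 4 classes only, and the values are not read as a trait of these classes. Spi1, which encodes PU.1, held 15.7 and 16.5 CPM in EryP-like nuclei (0.55 and 0.69 times). Of 10 relatives of the 8 genes, none was raised in EryP-like or MkP-like nuclei, Klf6 and Lmo4 were in BaP-like nuclei (2.64% of all genes, Lmo4 at 706 and 357 CPM) and Gata3 was in HSC-like nuclei (4.76%, at 17.6 and 15.1 CPM). At or below 0.5 times the other nuclei in both libraries were Klf2, Gfi1 and Lmo1 in EryP-like, Gata3, Klf2 and Gfi1 in MkP-like, Klf2 and Lmo1 in BaP-like and none in HSC-like nuclei, beside the shares of all genes given above.

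Over the 24 points of 12 classes in 2 libraries, the genes whose log2(CPM + 1) was most like that of a member were found among 6907 genes. The points share libraries and differ in depth, so the correlations are descriptions. Tal1 and Gata2 were alike at r = 0.85, the highest value among the pairs of the 8 genes, and Gata2 was the gene most like Tal1, before Mdga1 (0.82) and Adgrl1 (0.79). For Gata2 itself they were Slc18a2 (0.87), Tal1 and Angpt1 (0.84), and for Gata1 Slc25a21 (0.71), Shank3 (0.69) and Erc1 (0.68). Zg16 stood among the 3 for both Klf1 (0.64), with Ugcg (0.68) and Cenph (0.64), and Gfi1b (0.76), with March3 (0.75) and Hk1 (0.73). For Zfpm1 they were Mgmt (0.81), Gosr1 (0.81) and Tshz1 (0.80), for Lmo2 Osbpl1a (0.83), Prkg1 (0.81) and Map7 (0.79), and for Nfe2 Vamp5 (0.70), Hacd1 (0.69) and Zfp142 (0.68). The RNA of a gene and the summed accessibility of its locus were related at r = 0.73 for Tal1, 0.66 for Gata2, 0.65 for Nfe2, 0.52 for Gata1, 0.49 for Zfpm1, 0.45 for Gfi1b, 0.12 for Klf1 and 0.10 for Lmo2. This order depended on the peaks summed, since over peaks away from promoters r was 0.44 for Klf1 and 0.08 for Lmo2, and over the promoter peaks of the gene itself it was 0.06 for Klf1, 0.20 for Gfi1b and 0.36 for Nfe2.

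Between the libraries as wholes, Zfpm1 was the only one of the 8 genes at least 2-fold apart, with 311 UMIs (30.2 CPM) in library 1 and 126 (10.0 CPM) in library 2, a log2 ratio of 1.59 (1.28 to 1.90). Gata2 lay just under the limit at 0.96 and passed it at a gene minimum of 500 and after removal of the top 8% of doublet scores, at 1.02 in both. Among the 10614 genes 17.8% were at least 2-fold apart, 1869 of those 1889 were higher in library 1, and the median log2 ratio was 0.63. Relative to that median, Zfpm1 stood 0.96 higher on the log2 scale, Gata2 0.33 higher and Gata1 0.20 higher, while Klf1 stood -0.91 and Nfe2 -0.68 from it. Library 1 held 798 pro-B-like nuclei against 387, one of the classes with Zfpm1 UMIs, and the Zfpm1 level was higher in library 1 in EryP-like, MkP-like, HSC-like, BaP-like and pro-B-like nuclei alike. The part of the ribosomal RNA share and of class shares in these differences was not tested, and without the ribosomal RNA locus the log2 ratio of Zfpm1 was 1.31 and the median of genes 0.35.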

How the data were processed

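Single-nucleus multiome data (RNA and ATAC of the same nucleus) of lineage-negative, cKit-positive bone marrow cells were used. Per the labels, the authors deposited unnormalized counts, UMIs for genes and ATAC counts for peaks; the submitters' processing notes name Cell Ranger ARC 2.0.0, Seurat 4.0.3, Signac 1.3.0 and the build GRCm38 (mm10). Of the peak entries 82.5% were even, so ATAC intervals were computed on pairs of counts. Nuclei passed at least 200 genes and 1000 to 50000 ATAC counts; the matrix held 0 mitochondrial gene rows.

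RNA and ATAC were reduced to 30 components each, ATAC without the first, corrected between libraries, joined by weighted nearest neighbours and clustered at resolution 0.8 (Seurat 5.3.0, R 4.3.3). Rows of the 8 genes and the peaks of their loci were left out of the clustering, and a setting with all features was an alternative. A class name needed at least 3 markers at a log2 ratio of at least 1. Scrublet (scanpy 1.11.5) called 3 doublets (0.022%) and had not worked; removing the top 8% of scores took out 1307 nuclei.

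Counts were summed per class and library and given as CPM with exact Poisson intervals, and shares with exact Clopper-Pearson intervals, both at 95%. Python 3.11.15, pandas 2.3.3 and scipy 1.17.1 were used. The members, lists and markers were chosen with earlier results of these data known. The text names all 8 genes, for each its promoter peak and the 3 peaks with the largest ratio (smaller of both libraries, at least 40 counts of the class in each) in the class of its highest RNA level, the 3 most alike genes, and raised genes of the lists, of which some are not reported here; peaks at the limit, raised peaks outside this rule and peaks of pro-B-like nuclei were named after their values were seen. Peaks were annotated from GENCODE on the same build.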

Additional observations from a re-analysis of the deposited data

How the results depend on the processing

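No paired analysis was possible because each label group held 1 sample and the libraries carried no group. Of 268 ratios of raised genes over the alternatives that could change a ratio, all were above 1 and 252 at least 2, and the lowest was 1.05. These were pairs of gene and class already called raised, so ratios above 1 were largely set by that choice. They include Gata1 and Gfi1b at a gene minimum of 500, and leave out BaP-like nuclei where no such class was named. The clustering moved the HSC-like results most: the 3 raised genes became 0 at resolution 0.4 and in clusters from the RNA alone, and the 8 raised peaks became 4 and 2. No BaP-like class was named in clusters from the RNA alone, so no value was had there. Another random seed, added after the data were seen because the clusters moved with numeric settings, gave the same counts of raised genes and peaks in all 4 classes. A gene minimum of 500, which left 5 of the 8 genes with enough UMIs, gave 3 raised genes in EryP-like, 0 in BaP-like and 1 in HSC-like nuclei, 9 raised peaks in EryP-like, 0 in BaP-like and 3 in HSC-like nuclei, and 2 genes at least 2-fold apart between libraries. Removing the top 8% of doublet scores also gave 2 such genes.

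Raised peaks in EryP-like, MkP-like, BaP-like and HSC-like nuclei numbered 23, 19, 8 and 15 at 1.5-fold, 8, 4, 0 and 0 at 4-fold, 7, 3, 2 and 2 in windows of 10 kb, and 8, 4, 2 and 3 by nuclei with a count; windows of 100 kb gave 23 in EryP-like and 10 in BaP-like nuclei. At 1.5-fold 5 genes were raised in HSC-like nuclei, and at 4-fold 2 in MkP-like and 0 in HSC-like nuclei. Without the ribosomal RNA locus 2 partner factors were raised in BaP-like nuclei and 1 erythroid target in HSC-like nuclei. Other alternatives added after the data were seen gave, for library 1 alone, 26, 13, 10 and 13 raised peaks in the 4 classes and 3 raised genes in BaP-like nuclei, for library 2 alone 2 raised genes in BaP-like nuclei, and for the share of peaks with a CTG and AGATAA or TGATAA a ratio of the loci to all peaks of 1.89 (1.0 as first searched). The BaP-like calls were Gata2, Gfi1b and Tal1 in library 1 alone, and Gata2 and Klf1 in library 2 alone. Those of Gfi1b and Klf1 rested on only 1 and 2 UMIs in the class. Depth limited Gata1, Klf1 and Gfi1b, each with 59 UMIs or fewer. The cause of these changes was not tested, apart from the lower number of genes with enough UMIs at the higher gene minimum.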

Other observations

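An unnamed cluster of 80 nuclei in library 1 and 28 in library 2 was led by Sox6, Rhd, Hba-a1 and Hbb-bs and met 2 markers of the erythroid list, too few for a name. It held 0 Gata1 UMIs in both libraries, which allows up to 24.3 and 66.1 CPM at 3 counts, and 1 Klf1 UMI. Over both libraries together its Gata1 interval, 0 to 21.8 CPM, overlapped that of EryP-like nuclei (15.3 to 34.9 CPM), so a lower level was not detectable. Its Gata1 promoter peak at -0.2 kb held 22.1 CPM (13.1 to 34.9) in library 1 and, from 6 counts, 14.1 CPM (2.90 to 41.1) in library 2, against 5.63 and 6.70 CPM in EryP-like nuclei, whose interval lay below that of the cluster in library 1 and overlapped it in library 2. At -3.5 kb it held 19.6 CPM and, from 2 counts, 4.69 CPM, against 14.0 and 15.3 CPM, with overlapping intervals. Its Zfpm1 promoter peak held 214 and 181 CPM against 130 and 128 CPM, and its Klf1 peak at -0.7 kb 19.0 and 11.7 CPM against 14.5 and 14.4 CPM. Lmo2 at -0.9 kb, the peak open in EryP-like nuclei, held 22.1 and 4.69 CPM there. Ribosomal RNA took 51.5% and 57.3% of the UMIs of this cluster, against 40.6% and 52.4% in EryP-like nuclei, and the part of that in the count of 0 Gata1 UMIs was not tested.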
